A study of Mus musculus with 10 samples.

Results

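Pcp4 and 5 other genes of calmodulin and its small neuronal binding partners were followed in the hippocampus of Ts65Dn mice. The 6 genes were Pcp4, Pcp4l1, Nrgn, Gap43, Calm2 and Calm3, of 19938 genes with a measured transcript cluster (the set of probes that the array holds for a transcript). They were selected by biological role and on measured values of the same comparison, since Pcp4 was taken up as a bright gene of the trisomic segment with a small difference between genotypes. The genotype differences of these 6 genes are therefore given as a description, without a test. Where a gene had several transcript clusters, the one with the highest mean signal stood for it.

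Ts65Dn mice, which model Down syndrome, carry a small extra chromosome. It brings in 1 more copy of a distal stretch of mouse chromosome 16 (Mmu16) and of the centromeric end of mouse chromosome 17. The Ts65Dn group was 5 trisomic male mice and the control group 5 euploid male littermates, all 16 weeks old and of an F1 hybrid B6C3B background. RNA of the left and right hippocampus of each mouse was pooled and hybridised to 1 Affymetrix Mouse Gene 1.0 ST array. The extra chromosome holds genes without a counterpart on human chromosome 21 and lacks part of the mouse regions related to that human chromosome, which limits the mouse as a model. Pcp4 lies on the segment and is in 3 copies in Ts65Dn mice and 2 in controls, and the other genes are in 2 copies in both. Gap43 is also on Mmu16, at chr16:42248552-42340651, but outside the segment, which was taken as 84718281 to 97962627. Because whole tissue was measured, fewer cells of a type and less RNA per cell cannot be told apart.

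Calmodulin is the main calcium sensor of neurons and, once it has bound calcium, switches on kinases, the phosphatase calcineurin, adenylyl cyclases and ion channels. PCP4, neurogranin (Nrgn) and GAP-43 are small proteins with an IQ motif, a short helix that holds calmodulin at low calcium. Neurogranin acts in dendritic spines and GAP-43 in growth cones and axon terminals, and phosphorylation of either by protein kinase C releases its calmodulin. PCP4 changes how fast calmodulin takes up and gives off calcium. In the hippocampus Pcp4 is known as a gene of CA2 pyramidal cells and dentate granule cells.

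The sequences just before the annotated start of 4 of the genes are shown because Pcp4 was the only one of them with an added copy, so that a reader can set its upstream sequence beside those of its functional relatives. They are from RefSeq on the GRCm38.p6 build, 250 bases each, written 5′ to 3′ on the strand of the gene, and capitals mark the CpG dinucleotides. The windows are chr16:96467356-96467605 on the plus strand for Pcp4, chr1:171196269-171196518 on the minus strand for Pcp4l1, chr9:37552746-37552995 on the minus strand for Nrgn and chr7:16924033-16924282 on the minus strand for Calm3.
Pcp4: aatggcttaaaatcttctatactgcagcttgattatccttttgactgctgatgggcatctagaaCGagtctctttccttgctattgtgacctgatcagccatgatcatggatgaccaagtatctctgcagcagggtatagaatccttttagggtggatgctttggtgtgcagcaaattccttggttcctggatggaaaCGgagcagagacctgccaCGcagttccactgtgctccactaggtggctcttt
Pcp4l1: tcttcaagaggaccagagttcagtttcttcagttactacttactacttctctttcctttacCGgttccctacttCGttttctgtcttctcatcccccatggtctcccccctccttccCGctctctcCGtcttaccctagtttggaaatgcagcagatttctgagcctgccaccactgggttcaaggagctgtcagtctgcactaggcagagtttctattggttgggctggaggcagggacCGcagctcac
Nrgn: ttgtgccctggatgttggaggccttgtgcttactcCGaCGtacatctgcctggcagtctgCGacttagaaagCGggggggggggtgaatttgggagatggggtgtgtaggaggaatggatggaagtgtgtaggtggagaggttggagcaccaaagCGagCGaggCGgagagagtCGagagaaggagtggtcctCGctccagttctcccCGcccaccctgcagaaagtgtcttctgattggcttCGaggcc
Calm3: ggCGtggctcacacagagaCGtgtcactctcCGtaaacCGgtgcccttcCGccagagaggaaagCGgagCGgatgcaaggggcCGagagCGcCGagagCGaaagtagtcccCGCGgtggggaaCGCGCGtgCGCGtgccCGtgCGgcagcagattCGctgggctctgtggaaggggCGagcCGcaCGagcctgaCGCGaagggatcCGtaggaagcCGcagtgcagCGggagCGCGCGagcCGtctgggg
The Pcp4 window held 3 CpG at 46.8% G and C, and 29.0% of 32851 such windows held fewer. Pcp4l1 had 5 CpG at 51.6% and Nrgn 11 at 58.4%. Calm3 had 33 at 69.2%, more than 96.0% of the windows, whose median was 6. CpG was counted on 1 strand, since it reads the same on the other. These counts describe the letters of the windows and were not related to the signals.

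Pcp4 (chr16:96467606-96525793) was slightly brighter in Ts65Dn hippocampi. Its log2 signal was 12.15, 12.18, 12.06, 12.19 and 12.17 in Ts65Dn mice 1 to 5 and 12.01, 12.08, 11.84, 12.10 and 12.11 in control mice 1 to 5. In 4 Ts65Dn mice it lay above the highest control, and Ts65Dn mouse 3 lay within the control range, so the groups overlapped. The means were 12.15 ± 0.05 and 12.03 ± 0.11 (SD, n = 5 each), a difference of 0.12 ± 0.05 (SE) or 1.09-fold, and the Ts65Dn mouse was the higher one in 22 of 25 pairs across the genotypes. Mouse 3 was the lowest of both groups. Without control mouse 3 the difference in log2 signal was 0.07, and without Ts65Dn mouse 3 it was 0.14. Its transcript cluster was brighter than 98.0% of those with a gene symbol.

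Pcp4l1 (chr1:171173264-171196268) encodes a close relative of PCP4. Its log2 signal was 9.92, 10.37, 9.85, 10.15 and 9.84 in Ts65Dn mice and 10.11, 10.19, 9.88, 9.9997 and 10.22 in controls. Ts65Dn mouse 2 was the highest of the 10 mice and Ts65Dn mouse 5 the lowest, so that the Ts65Dn range enclosed the control range. The difference of the means was -0.05 ± 0.10 (log2, SE), with the Ts65Dn mouse higher in 9 of 25 pairs. Its SD in Ts65Dn mice, 0.23, was the widest of the 6 genes in either group.

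Nrgn (chr9:37544493-37552745), the gene of neurogranin, gave log2 signals of 12.51, 12.37, 12.47, 12.37 and 12.40 in Ts65Dn mice and 12.45, 12.32, 12.39, 12.47 and 12.39 in controls. The groups overlapped, with the highest value in Ts65Dn mouse 1 and the lowest in control mouse 2. The difference was 0.02 ± 0.04 (SE). For Gap43, the growth cone protein, the log2 signals were 9.39, 9.54, 9.22, 9.34 and 9.05 in Ts65Dn mice and 9.20, 9.52, 9.51, 9.14 and 9.32 in controls. The highest and the lowest of the 10 values were both from Ts65Dn mice, and the difference was -0.03 ± 0.10 (SE).

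The genes Calm2 and Calm3 encode the same calmodulin protein. Calm2 (chr17:87433401-87446935) gave log2 signals of 12.63, 12.63, 12.69, 12.68 and 12.78 in Ts65Dn mice and 12.62, 12.68, 12.66, 12.74 and 12.76 in controls. Mouse 5 was the brightest and mouse 1 or 2 the dimmest in each group, and the difference was -0.01 ± 0.04 (SE). A second, dimmer transcript cluster named Calm2 had a difference of 0.04 ± 0.07, and its deviations from the genotype means followed those of the first with r = 0.92 over the 10 mice. Whether either cluster also takes signal from processed copies of the gene was not checked. Calm3 (chr7:16915379-16924032) gave 12.45, 12.63, 12.58, 12.44 and 12.52 in Ts65Dn mice and 12.64, 12.50, 12.64, 12.38 and 12.49 in controls. The Ts65Dn values all lay inside the control range, and the difference in log2 signal was -0.01 ± 0.06 (SE).

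**Figure D1:**
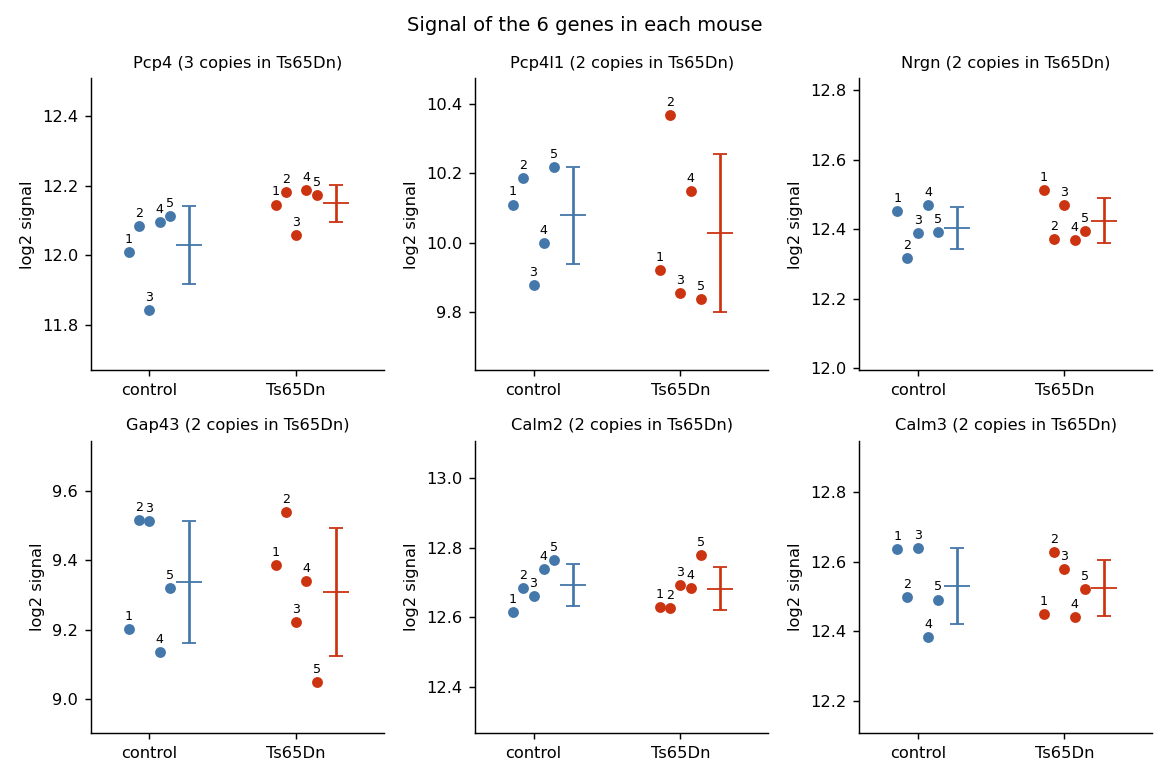
Log2 signal of each of the 6 genes (vertical axis, the same span of log2 units in each panel) in the 5 control and 5 Ts65Dn mice, numbered by replicate, with the mean and SD of each group beside the points. Pcp4 shows 4 Ts65Dn mice above all controls, mouse 3 is its lowest in both groups, and the groups overlap for each of the 6 genes.

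Of the 6 genes, 0 passed an adjusted p of 0.05 in the limma fit, in which 0.316% of all 23410 tested transcript clusters passed, and 0 had groups that did not overlap, against 0.884% of the tested clusters. Nothing is read from these counts, since the genes were chosen on this comparison. Between the 5 mice of a group, the SD of the log2 signal was 0.05 to 0.11 for Pcp4, Nrgn, Calm2 and Calm3 and 0.14 to 0.23 for the dimmer Pcp4l1 and Gap43.

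How Pcp4 compared with other genes in 3 copies was asked next. Of 127 measured genes of the Mmu16 segment, 42 were higher in Ts65Dn hippocampi (33.1%), and the median difference in log2 signal was 0.20, or 1.15-fold. The 127 include the dim stretch from Cldn17 to Krtap11-1, with the keratin cluster, at mean log2 signals of 4.20 to 7.19. Its genes differed by -0.09 to 0.06 and did not pass. They lower the share and the median, which do not describe the brighter segment genes alone. The paper reports no overexpression of this stretch in any model trisomic for it. The difference of Pcp4 was above that of 58 of the 127 genes, most of them dim, but Pcp4 was the fourth brightest. Beside the 8 segment genes nearest to it in mean signal it had the lowest difference of the 9. A small difference at a bright signal is what Pcp4 was picked for, so its place in this order is a description.

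Those 8 genes differed by 0.26 to 0.48 on the log2 scale, with a median of 0.37 (1.29-fold), and 7 of them passed the test. Atp5j, a subunit of mitochondrial ATP synthase, gave log2 signals of 12.34, 12.34, 12.37, 12.33 and 12.27 in Ts65Dn mice and 12.08, 12.08, 12.04, 12.10 and 12.06 in controls. The groups did not overlap, and the rise was 1.20-fold (limma, adjusted p = 0.00402). App, the amyloid precursor protein, was 1.21-fold higher (limma, adjusted p = 0.0161) and the superoxide dismutase gene Sod1 1.23-fold (limma, adjusted p = 0.0494). The kinase gene Dyrk1a, the ubiquitin ligase gene Ttc3, the synaptic phosphatase gene Synj1 and the interferon gamma receptor gene Ifngr2 rose by 1.29-fold, 1.30-fold, 1.34-fold and 1.40-fold (limma, adjusted p of 0.00876, 0.00184, 0.000899 and 0.00184). All 7 had higher values in each Ts65Dn mouse than in any control. Tmem50b, a transmembrane protein gene, differed by 0.41 ± 0.22 (log2, SE) and did not pass (limma, adjusted p = 1.00), with mouse 5 of each group far below the others at 11.63 and 11.26. The ratio of gene copies, 1.5, is 0.58 on the log2 scale. The difference of Pcp4 was 20.7% of that value and the median of the 8 genes 63.6%. The 8 genes were only roughly matched to Pcp4, with mean log2 signals of 11.65 to 12.96 beside its 12.09. Of those brighter than Pcp4, Atp5j (12.20) and App (12.96) had the smallest differences, 0.26 and 0.27, and Tmem50b (12.13) had 0.41. Whether the arrays narrow ratios at bright signals was not tested.

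**Figure D2:**
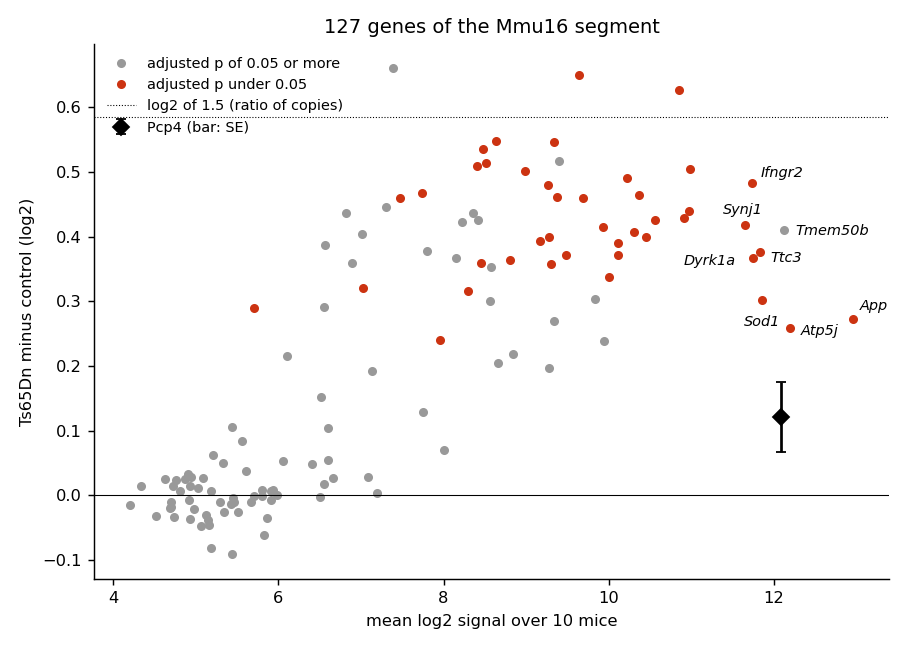
Difference in log2 signal between Ts65Dn and control (vertical axis) against the mean log2 signal over the 10 mice (horizontal axis) for 127 genes of the Mmu16 segment, with Pcp4 as a black diamond with its SE and the 8 genes nearest to it in signal named. Pcp4, at 0.12, lies below all 8, which run from 0.26 to 0.48, and the dotted line marks the ratio of copies.

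In gene order, the 4 measured genes on either side of Pcp4 ran from Sh3bgr to Fam3b, and 2 of the 8 passed the test. Dscam, the next gene after Pcp4 and a cell adhesion molecule of neurons, had log2 signals of 10.80, 10.67, 10.78, 10.74 and 10.87 in Ts65Dn mice and 10.36, 10.34, 10.22, 10.44 and 10.38 in controls. No values were shared between the groups, and the rise was 0.43 ± 0.05 (SE), or 1.34-fold (limma, adjusted p = 0.00305). B3galt5, a galactosyltransferase gene on the other side, was 1.29-fold higher (limma, adjusted p = 0.0494). Bace2, a protease related to the beta-secretase of APP, was dim, with a mean log2 signal of 6.11. It differed by 0.22 ± 0.05 without overlap of the groups but did not pass (limma, adjusted p = 0.392). Sh3bgr, Igsf5, Itgb2l, Mx1 and Fam3b were also dim, with log2 signals between 4.93 and 6.60, and differed by -0.04 to 0.05. The genes that passed on either side, Dscam and B3galt5, had larger differences than Pcp4. Sh3bgr, Igsf5, Itgb2l, Mx1 and Fam3b had smaller ones. Since Pcp4 was picked for a small difference, its place among its neighbours is a description.

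The wider calmodulin pathway was read from 102 listed genes, of which 97 were measured, 91 of them beside the 6 genes above. Of the 91, 1 was higher and 0 were lower (1.10%, against the 0.316% of all tested clusters). Before adjustment, 1 higher and 2 lower genes had p under 0.05, or 3.30%, against 3.16% of all tested clusters. The median difference in log2 signal was -0.01, and -0.00 over all tested clusters. Of the 91, 44 were positive (48.4%, against 47.6% of all tested clusters). A rank method after the kind of test that the study used called 4 of them, Rcan1, Nos1, Kcnn3 and Pnck, and 5.36% of all tested clusters.

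Rcan1, an inhibitor of calcineurin that is itself in 3 copies in Ts65Dn mice, was the gene that passed. Its log2 signal was 9.55, 9.65, 9.66, 9.60 and 9.57 in Ts65Dn mice and 9.24, 9.17, 9.27, 9.04 and 9.003 in controls. Each Ts65Dn mouse was above each control, and the rise was 0.46 ± 0.06 (SE), or 1.38-fold (limma, adjusted p = 0.00330). Of the calcineurin subunits, the catalytic Ppp3cb differed by 0.04 ± 0.03 and Ppp3ca by 0.04 ± 0.06, and neither passed. The other 7 genes of this list of 8 had differences of -0.07 to 0.05.

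Among 28 other calmodulin-binding enzymes, pumps, channels and scaffolds 0 passed, with a median difference of 0.00. Nos1, the neuronal nitric oxide synthase that calmodulin switches on, had log2 signals of 9.20, 9.30, 9.14, 9.05 and 9.41 in Ts65Dn mice and 9.43, 9.43, 9.53, 9.62 and 9.61 in controls. Each Ts65Dn mouse was below each control, though by little for mouse 5, and the difference was -0.30 ± 0.07 (limma, adjusted p = 0.225). Kcnn3, a calcium-activated potassium channel with calmodulin as its calcium sensor, differed by -0.15 ± 0.06 with overlap (limma, adjusted p = 1.00). Interneuron markers, the cells in which Nos1 is best known, had list means of 9.69 to 9.91 in Ts65Dn mice and 9.64 to 9.93 in controls. Of the 6 markers 1 was positive, Vip at 0.25 ± 0.11 (SE), the median difference was -0.05 and 0 passed. Whether these markers bear on Nos1 was not tested.

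In the 19 calmodulin-dependent kinases and regulators 0 genes passed, and the median difference was 0.01. Camk2a and Camk2b, the main subunits of CaMKII in forebrain neurons, both differed by -0.01 (SE 0.03 and 0.04). The 2 genes with the smallest p were Camk2d, another subunit, at -0.20 ± 0.12, and Camk2n1, an inhibitor of the kinase, at 0.09 ± 0.06. Of the 4 remaining calmodulin-like genes, Calm4 differed by -0.06 and Calml3 by -0.03, and 0 passed. Calml4 had the largest difference of the 4, 0.27 ± 0.42 (SE), with a wide spread between mice. The 9 growth cone and protein kinase C substrate genes had 0 calls, with Add3, an adducin of the membrane skeleton, at -0.07 ± 0.05 and Marcksl1, a relative of MARCKS, at -0.12 ± 0.09. Of 23 EF-hand calcium sensors and buffers 0 passed and 8 were positive, where 47.6% of all tested clusters were positive. Their median difference was -0.03, and the count of signs was not tested. Cabp1, a calmodulin-like sensor of neurons, differed by 0.09 ± 0.05, and Calb1, the calbindin of dentate granule cells, by -0.13 ± 0.07.

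**Figure D3:**
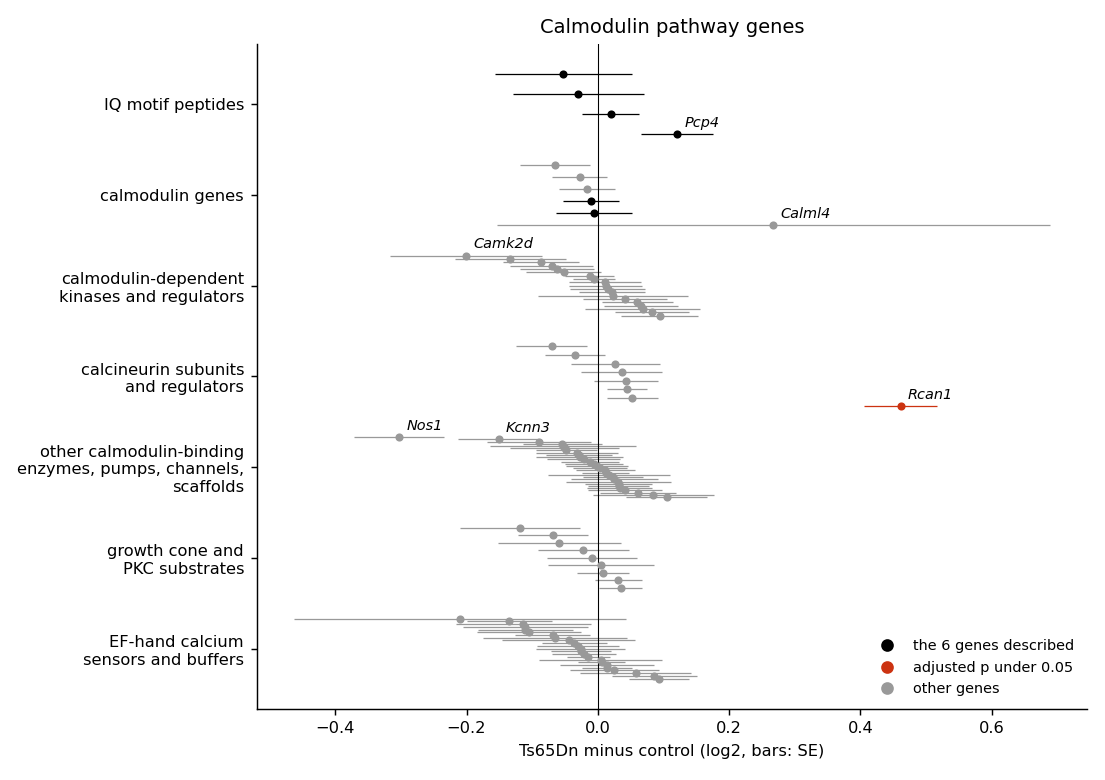
Difference in log2 signal between Ts65Dn and control with its SE (horizontal axis) for the 97 measured genes of the 7 calmodulin pathway lists (vertical axis, sorted within each list), with the 6 genes described in black. Rcan1, at 0.46, is the gene past the threshold, and Nos1, at -0.30, is the lowest but did not pass.

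Markers of hippocampal fields and of cells that the dissection could hold were compared next. The dentate marker Prox1 had log2 signals of 10.02 to 10.42 in Ts65Dn mice and 9.97 to 10.29 in controls. The CA1 marker Wfs1 had 10.34 to 10.73 and 10.84 to 10.97, so its groups did not overlap. Its difference was -0.35 ± 0.07 (SE), lower in Ts65Dn mice in all 25 pairs, and did not pass (limma, adjusted p = 0.0925). Groups without overlap were found for 0.884% of all tested clusters. The other measured CA1 genes, Fibcd1, Mpped1, Pou3f1 and Dcn, overlapped and differed by -0.14 to 0.01. The mean of the CA1 list, which includes Wfs1, was 9.92 to 10.14 in Ts65Dn mice and 10.01 to 10.28 in controls. Whether this mean bears on the signals of the 6 genes was not tested. The pan-neuronal list mean was 12.54 to 12.64, so neuronal markers were present, though these are not particular to the hippocampus. In limma 0 of 77 marker genes passed, and the means of all 13 lists overlapped between genotypes. For CA2, a site of Pcp4, the list mean was 7.56 to 7.75 in Ts65Dn mice and 7.65 to 7.86 in controls. Of its 5 measured genes 1 was positive, and the median difference was -0.07. The lowest was Cacng5 at -0.34 ± 0.13 (SE), which overlapped between the groups and did not pass. For the dentate gyrus the list mean was 8.81 to 9.28 and 8.82 to 9.13. The choroid plexus list stood apart by its spread between mice, with means of 7.36, 9.79, 7.17, 9.15 and 8.27 in Ts65Dn mice and 7.95, 8.67, 7.33, 7.27 and 9.58 in controls. Its most abundant product, Ttr, ran from 8.93 to 13.61.

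Deviations of each mouse from its genotype mean, which do not contain the genotype difference, were then correlated between genes. Of 15 pairs among the 6 genes 1 had an unadjusted p under 0.05 and 0 passed after adjustment. That pair was Pcp4 and Pcp4l1, with Pearson r = 0.58 (exact permutation within genotype, p = 0.0388, adjusted p = 0.447) and Spearman rho = 0.67 (exact permutation p = 0.0219, adjusted p = 0.329) over 10 mice. Without mouse 3 of each group, the mice farthest from the median of Pcp4, r was 0.29. Leaving out such mice also narrows the range of Pcp4, so the fall in r does not show that the relation rested on them. Pcp4 and Calm3 had r = -0.62 (exact permutation p = 0.0888, adjusted p = 0.447) and rho = -0.71 (exact permutation p = 0.0541, adjusted p = 0.406), and r was -0.50 without mouse 3 of each group.

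Of 78 pairs of a gene and a marker list, 9 had an unadjusted p under 0.05 and 0 passed after adjustment. The smallest p was that of Pcp4l1 with the choroid plexus list, at r = 0.87 (exact permutation p = 0.00264, adjusted p = 0.206) and rho = 0.77 (exact permutation p = 0.0277, adjusted p = 0.530), and r was 0.82 without Ts65Dn mouse 2 and control mouse 3. Ts65Dn mice 2 and 4 and control mice 2 and 5 were above their genotype means for both Pcp4l1 and the list. With the thalamus and habenula list Pcp4 had r = 0.74 (exact permutation p = 0.0245, adjusted p = 0.319) and rho = 0.67 (exact permutation p = 0.0735, adjusted p = 0.556), and r = 0.56 without mouse 3 of each group. Of the 7 genes of this list Zic1 varied most between mice, with an SD of 0.84 in Ts65Dn mice and 1.00 in controls. How far the list mean followed Zic1 alone was not tested. Nrgn had r = -0.71 with the choroid plexus list (exact permutation p = 0.0410, adjusted p = 0.395, rho = -0.70 at exact permutation p = 0.0444), and r was -0.59 without Ts65Dn mouse 1 and control mouse 4. Calm2 had r = -0.78 with the interneuron list (exact permutation p = 0.0119, adjusted p = 0.288, rho = -0.78 at exact permutation p = 0.0185), and r was -0.54 without mouse 5 of each group.

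The other 5 of the 9 pairs had adjusted p of 0.288 to 0.395 for r. Pcp4l1 had r = 0.74 with the thalamus and habenula list, in which Zic1 varied most (exact permutation p = 0.0142, rho = 0.64 at p = 0.0598, r = 0.45 without Ts65Dn mouse 2 and control mouse 3). With the striatum list Pcp4l1 had r = 0.69 (exact permutation p = 0.0185, rho = 0.71 at p = 0.0342, r = 0.52 without the same mice) and Nrgn r = -0.69 (exact permutation p = 0.0369, rho = -0.65 at p = 0.0610, r = -0.61 without Ts65Dn mouse 1 and control mouse 4). Pcp4 had r = 0.52 with the oligodendrocyte list (exact permutation p = 0.0165, rho = 0.47 at p = 0.119) and r = -0.68 with the CA1 list (exact permutation p = 0.0483, rho = -0.66 at p = 0.0785). Without mouse 3 of each group these r were 0.14 and -0.54, with the same limit of a narrower range of Pcp4. The part of these marker levels in the signals of Pcp4, Pcp4l1, Nrgn and Calm2 was not tested.

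**Figure D4:**
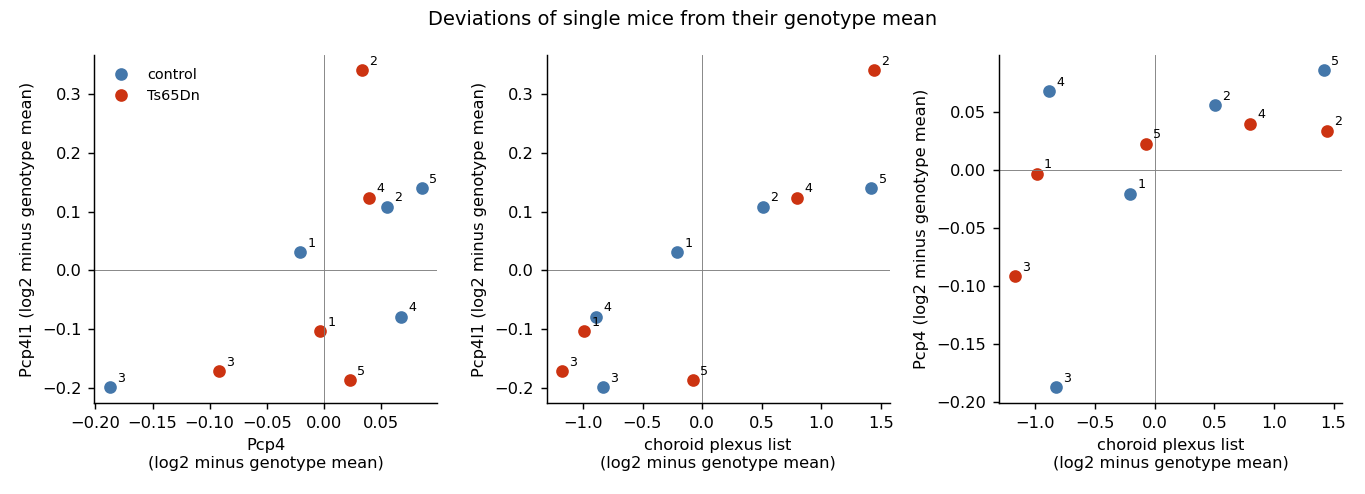
Log2 deviations of the 10 mice from their genotype means (both axes), for Pcp4l1 against Pcp4, Pcp4l1 against the mean of the choroid plexus list, and Pcp4 against that list, with points numbered by replicate. The points of Pcp4l1 and the choroid plexus list had r = 0.87 (adjusted p = 0.206, not passed), and those of Pcp4 and the list r = 0.59 (adjusted p = 0.399), both by exact permutation, and in the first panel mouse 3 of each group lies at the lower left.

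The genes whose deviations were most like those of Pcp4, among 9975 genes above the median signal, were Rev1 (r = 0.93), Ppp4r1 (r = 0.92), Cdr1os, Pan2 and Taz (each r = 0.90) over 10 mice. They were picked as the highest of many and carry no test. In the same order Pcp4l1 came at place 431, Calm2 at 1562 and Calm3 at 9784.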

How the data were processed

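The authors normalised the arrays by RMA, a method of background correction, quantile normalisation and probe summary, and deposited log2 values. Such summaries understate ratios of dim genes. RMA, limma and mm10 are named in the submitters' processing notes, with no versions. Of 35556 rows, 23410 had a gene symbol in the platform annotation (1621 of them several) and were tested, and 21698 of 21789 single-symbol rows had a RefSeq gene on GRCm38.p6. Array medians were 7.38 to 7.41, and no pair of arrays was identical. For arrays, the number of mice limits the precision.

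The genotype comparison was a limma 3.58.1 fit (R 4.3.3, lmFit, eBayes) on genotype alone, two-sided. P-values were adjusted by Benjamini-Hochberg across tested rows, with a threshold of 0.05. A differential test by ranks of fold changes over pairs, of the kind the study used, was written anew and may differ from its program, so it served as an alternative. The fit was tested on simulated data. Correlations used log2 values minus genotype means in Python 3.11.15 with numpy 2.4.6, and exact two-sided permutation within genotype. Plots were drawn with matplotlib 3.10.9.

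The genes and lists were chosen with earlier results of these data known. Named genes were the 6 genes, the 4 measured neighbours of Pcp4 on each side, the 8 segment genes nearest in signal, the pathway genes past the threshold, the 2 of smallest p per list and the 5 most correlated with Pcp4. Ppp3ca, Camk2a, Camk2b, Pnck, Calml4, Cldn17, Krtap11-1 and the markers Prox1, Wfs1, Ttr, Zic1, Vip and Cacng5 were named after their values were seen. Alternatives were other normalizations, array weights, other rows and variance models, other summaries, the rank method, the replicate block, Spearman's rho, no centring and leaving out each array.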

Additional observations from a re-analysis of the deposited data

How the results depend on the processing

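The difference of Pcp4 was positive under all 16 alternatives, from 0.07 without control replicate 3 to 0.14 without Ts65Dn replicate 3. Those of the other 5 genes moved by less than the SD between mice, and lay between -0.19 and -0.01 for Pcp4l1 and between -0.09 and 0.04 for the rest. Among the pathway genes the rank method gave 4 calls in place of 1. Rcan1 passed under all 17 alternatives fitted with limma, with an adjusted p of up to 0.0132, and no other pathway gene passed in those 17. No correlation passed adjustment under any alternative run. With the replicate block the mice had too few possible orders for a single pair to pass on its own, so that alternative could hardly have found one.

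With the replicate block the difference of Pcp4 was 0.12 with an SE of 0.04, and 1 pathway gene passed. Same-numbered mice had correlations of their deviations from 0.03 to 0.51, all positive, and 7 of 10 mice correlated best with their own number. Because not every pair was above 0.1, the main fit did not take the numbers as pairs, but this cut does not show that they are unrelated. Pcp4 was higher in the Ts65Dn mouse of each number, by 0.06 to 0.22. The permutations within genotype also ignored the numbers, so their p-values would not hold if same-numbered mice share a source of variation. The median SE of a difference over tested rows was 0.06 with 5 mice per genotype, which limits small differences such as that of Pcp4, and signals near background limit the dim genes.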
